A study of Mus musculus with 34 samples.

Results

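Ly6c1, Clec4e and Cd300lf encode 3 surface proteins of mouse myeloid cells, and their RNA was followed here in macrophages sorted from the colonic lamina propria. The 3 genes were chosen by name, from rows that had stood out as higher in macrophages lacking the IL-10 receptor alpha chain. All 3 are listed in each of the 3 deposited tables, among 9022, 8816 and 8793 listed genes, of which 7897 occur in every table. According to the labels the cells were gated as CD64+ and CD11b+ leukocytes (CD45+) with intermediate CD11c and neither CD103 nor Ly6c, so the RNA of Ly6c1 was measured in cells gated as negative for the Ly6c protein.

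Ly6c1 encodes one of the near-identical glycolipid-anchored proteins that antibodies read as Ly6C, the antigen that marks classical monocytes in mouse blood and that monocytes lose as they mature into gut macrophages. It is also made by endothelial cells and some lymphocytes. Clec4e encodes Mincle, a C-type lectin receptor that binds microbial glycolipids and a nuclear protein released by dying cells, and that signals through the adaptor Fcer1g, the kinase Syk and the Card9, Bcl10 and Malt1 complex. Cd300lf encodes CLM-1, a receptor of the CD300 family that binds phosphatidylserine and other lipids and carries inhibitory tyrosine motifs that recruit phosphatases. IL-10, sensed through Il10ra, is a main restraint on inflammatory gene expression in gut macrophages.

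The 34 libraries fall into 10 groups, and every mouse was C57BL/6. The first table holds IL10R (n = 3) and CXhet (n = 3) libraries from untreated mice of 6 to 7 weeks. The rescue table, of the same age, holds 5 libraries titled 5C5_IL10R, 4 titled 5C5_IL10R_P19, 4 titled 5C5_IL10R_abx, 3 titled IL10R_littermate_abx and 2 titled CX. The abx mice drank antibiotics, and the others of that table were untreated. The neutrophil table holds 3 libraries titled ko_igg, 3 titled ko_ly6g and 4 titled wt, from bone marrow chimeras. These were taken 4 weeks after chimerism, and the age of the mice is not given in the labels. All libraries of the neutrophil table carry a label for injection of the Ly6g antibody, which the titles contradict, and groups here follow titles. IL10R was read as deficiency of the IL-10 receptor alpha chain from the series title, and P19 as deficiency of the IL-23 subunit p19. The driver of the deletion, the genotype of the littermates, and the meaning of 5C5, CX and CXhet are not stated in the labels, nor whether libraries came from separate animals, so p-values measure the spread between libraries only.

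Values are read counts scaled by a single factor in each library, called normalized values below. They were normalized separately in each table, so levels are compared within a table only. Libraries held 747046 to 4525047 recovered reads. Il10ra was checked first. It stood at 9.26, 361 and 65.9 in the IL10R libraries, against 689, 501 and 371 in the CXhet libraries, so the library labelled IL10R 2 was close to the lowest CXhet library, and the difference did not pass (log2 difference -2.99, SE 1.09, limma adjusted p = 0.138). In the rescue table Il10ra reached at most 31.2 in any 5C5_IL10R, P19 or 5C5_IL10R_abx library, against 138 to 191 in IL10R_littermate_abx and 248 and 284 in CX. In the neutrophil table it was 32.2 to 111 in the ko libraries, against 247 to 827 in wt, where wt 1 stood apart at 827. Library 5C5_IL10R 27 stood apart in neutrophil markers, with a summed level of 1451 against 99.7 to 195 in the other 4 of its group. Values of the 3 genes that rest on IL10R 2, 5C5_IL10R 27 or wt 1 are given below with and without it.

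The 3 genes lie on different chromosomes, each near relatives. Ly6c1 on chromosome 15 sits between Ly6a and Ly6c2, Clec4e on chromosome 6 is next to Clec4d and near Clec4n, and Cd300lf on chromosome 11 is near Cd300e and Cd300ld3. Promoter windows from 250 bases before to 50 bases after the transcript start are shown because the 3 genes stood higher together in the receptor-deficient groups. The sequences are from RefSeq, build GRCm38, which is later than the mm9 build named in the submitters' processing notes. All 3 genes and Ly6c2 matched the RefSeq table by symbol, and all 4 are on the minus strand. Ly6c1 and Ly6c2 each had 2 windows, of which only the first was searched and is shown. Windows are chr15:75048788-75049087 for Ly6c1, chr15:75111922-75112221 for Ly6c2, chr6:123289822-123290121 for Clec4e and chr11:115133943-115134242 for Cd300lf. They read 5′ to 3′ along the gene, and capitals mark matches to PU.1 (GAGGAA) or C/EBP (TTGCNNAA), searched on both strands.
Ly6c1: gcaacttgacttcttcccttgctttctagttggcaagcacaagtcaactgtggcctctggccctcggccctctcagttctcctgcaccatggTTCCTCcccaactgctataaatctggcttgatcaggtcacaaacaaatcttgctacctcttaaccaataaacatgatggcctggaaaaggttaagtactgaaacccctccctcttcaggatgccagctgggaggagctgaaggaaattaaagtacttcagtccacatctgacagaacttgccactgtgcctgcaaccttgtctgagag
Ly6c2: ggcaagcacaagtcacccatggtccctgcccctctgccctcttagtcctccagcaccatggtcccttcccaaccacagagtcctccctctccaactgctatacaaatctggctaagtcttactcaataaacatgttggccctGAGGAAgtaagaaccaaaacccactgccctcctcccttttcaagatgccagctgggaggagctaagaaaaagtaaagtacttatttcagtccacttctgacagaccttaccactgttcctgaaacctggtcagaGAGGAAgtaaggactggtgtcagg
Clec4e: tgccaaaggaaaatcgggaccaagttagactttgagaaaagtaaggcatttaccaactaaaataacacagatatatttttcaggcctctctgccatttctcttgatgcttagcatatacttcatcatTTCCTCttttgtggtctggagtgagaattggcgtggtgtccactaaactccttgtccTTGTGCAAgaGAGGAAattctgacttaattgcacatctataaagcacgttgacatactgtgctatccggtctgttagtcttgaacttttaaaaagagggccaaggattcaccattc
Cd300lf: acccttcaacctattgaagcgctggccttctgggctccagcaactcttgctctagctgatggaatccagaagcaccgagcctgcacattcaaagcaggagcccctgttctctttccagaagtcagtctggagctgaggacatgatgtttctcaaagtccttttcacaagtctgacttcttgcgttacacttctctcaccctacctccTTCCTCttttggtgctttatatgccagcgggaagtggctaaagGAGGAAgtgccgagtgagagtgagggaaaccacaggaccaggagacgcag
The motif of PU.1, a transcription factor of myeloid cells, matched once in the Ly6c1 window and 2 times in each of the other windows, and it is present in 28.3% of 32851 RefSeq promoter windows of the same length. The C/EBP motif matched once, in the Clec4e window, 66 bases before the start and beside a PU.1 match. It occurs in 10.8% of all windows. No match was found in any of the 4 windows to the STAT motif (TTCNNNGAA, in 8.3% of all windows) or to the interferon response motif ISRE (GAAA, any 2 bases, then GAAA, in 3.44%).

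In the first table all 3 genes were high in IL10R macrophages and low in CXhet macrophages. Since they were noticed in this contrast, the values are a description and no test is given. Ly6c1, the monocyte antigen, had normalized values of 454, 710 and 500.1 in IL10R libraries, against 37.6, 70.8 and 103 in CXhet libraries. The lowest IL10R library lay far above the highest CXhet library, with a log2 difference of 3.04 (SE 0.35), about 8.2-fold. Clec4e, the Mincle receptor, had 522, 1102 and 548 in IL10R libraries, against 30.8, 25.2 and 12.5 in CXhet libraries. The ranges were again apart, and the log2 difference was 4.91 (SE 0.38). Cd300lf, the CLM-1 receptor, had 210.2, 358 and 235 in IL10R libraries, against 15.4, 5.59 and 2.78 in CXhet libraries. It differed by 5.07 (SE 0.51), and the lowest CXhet value rests on 2 reads. The libraries of the groups did not overlap for any of the 3, which was so, in the higher direction, for 16.7% of 6766 tested genes. Of those genes 4.57% were called higher and 4.12% lower, at a limma adjusted p under 0.05. IL10R 2, the library with Il10ra near the CXhet level, had the highest value of each of the 3 genes, and without it the log2 differences were 2.85 for Ly6c1, 4.56 for Clec4e and 4.85 for Cd300lf.

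**Figure D1:**
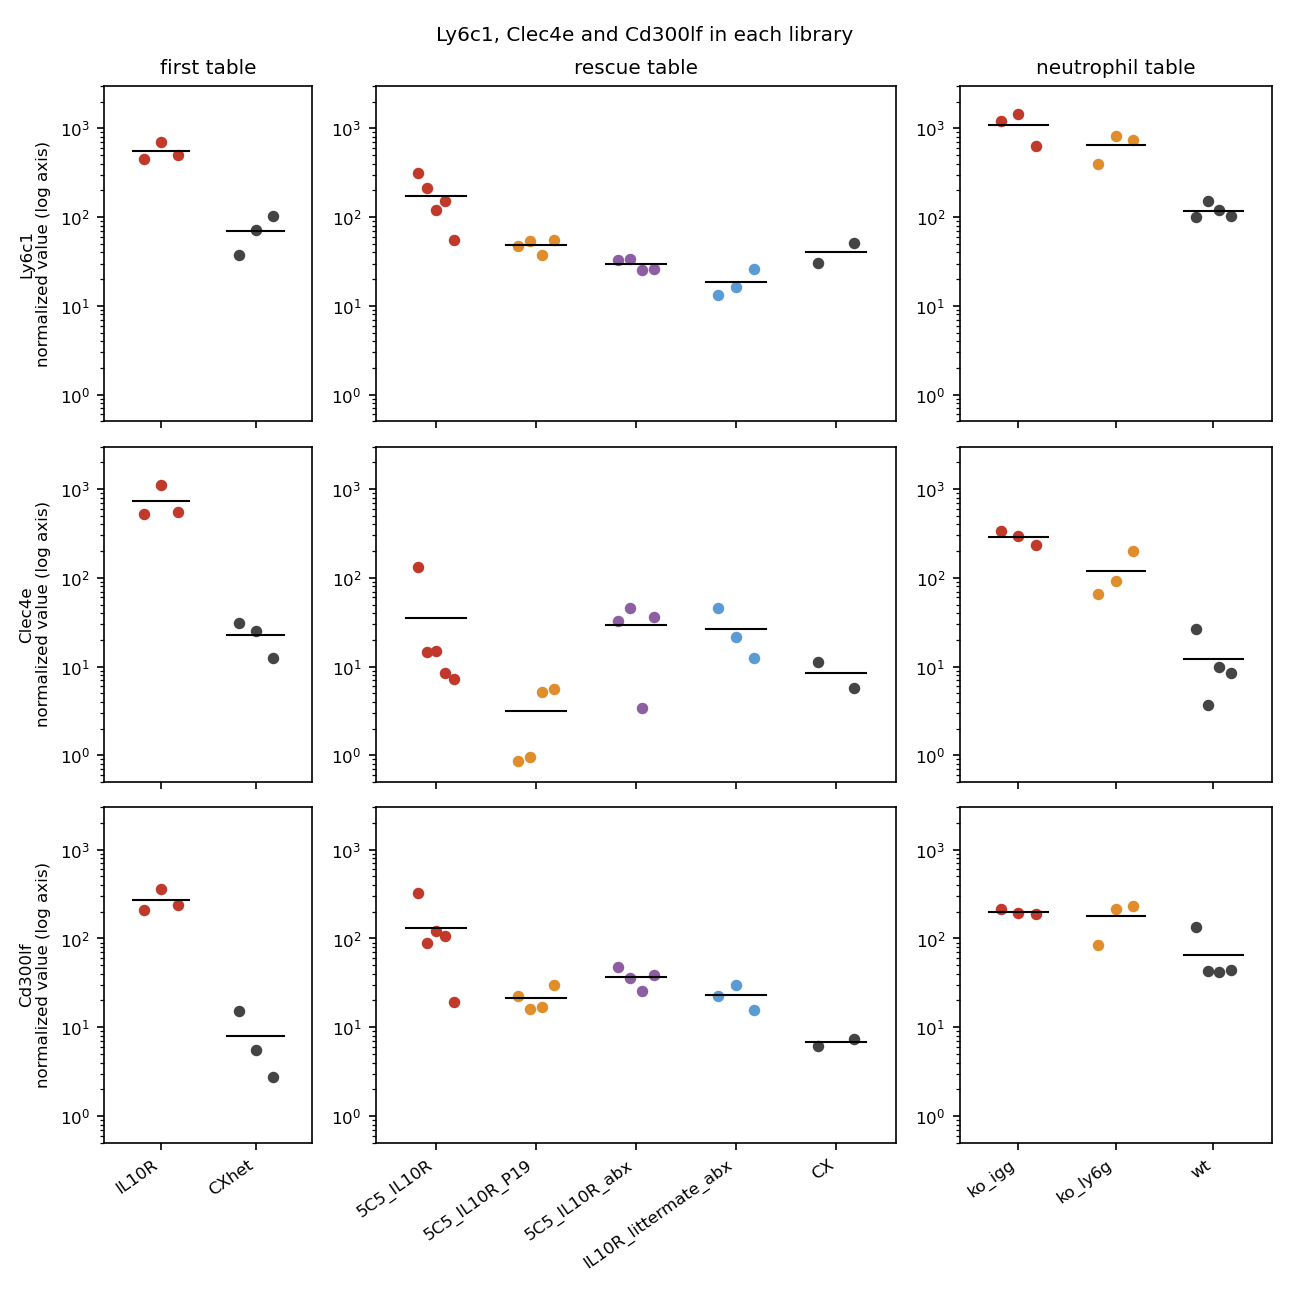
Normalized value (log axis) of Ly6c1, Clec4e and Cd300lf in every library of the 3 tables. Points are libraries and lines are group means. All IL10R libraries lie above all CXhet libraries for each gene, whereas in the rescue table library 27 of 5C5_IL10R, at 131, is the only one of its group far above CX for Clec4e.

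In the rescue table the separation held for 2 of the 3 genes. Ly6c1 was 317, 212, 121, 152 and 54.7 in the 5C5_IL10R libraries 27, 32, 61, 67 and 68, against 30.0 and 51.2 in the CX libraries 1 and 3. Every 5C5_IL10R library was above both CX libraries, library 68 only just, and the log2 difference was 1.88 (SE 0.44). Cd300lf was 325, 88.1, 121, 106.3 and 19.3 in the same 5C5_IL10R libraries, against 6.21 and 7.40 in CX. It did not overlap either, with a log2 difference of 3.61 (SE 0.64), beside a share of non-overlapping higher genes of 18.8% among 6612 tested, of which 3.87% were called higher and 6.03% lower. Clec4e was 131, 14.5, 15.1, 8.35 and 7.24 in 5C5_IL10R, against 11.4 and 5.69 in CX. Only library 27 was far above CX, the other 4 lay around the CX values, and the log2 difference of 1.07 (SE 0.99) was 0.37 without library 27. Without that library Ly6c1 still differed by 1.60 and Cd300lf by 3.17. Library 27 was the highest and library 68 the lowest of the 5 for all 3 genes.

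Genes were tested where their mean over a table lay above its lower quartile. Clec4e, with a mean of 22.4 over the rescue libraries against a quartile of 40.4, lay below, so its rescue values come from a fit over all 8816 listed genes. Ly6c1 and Cd300lf passed only through 5C5_IL10R, since over the other 13 rescue libraries they averaged 34.5 and 24.2. In the same way Clec4e and Cd300lf passed in the first table only through IL10R, and Clec4e in the neutrophil table only through ko_igg.

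The neutrophil table gave the same order. Ly6c1 was 1201, 1459 and 634 in the ko_igg libraries 14, 16 and 18, against 101.2, 150.3, 121 and 102 in the 4 wt libraries. The log2 difference was 3.14 (SE 0.33), and 3.07 without wt 1. Clec4e was 339, 293 and 237 in ko_igg, against 26.8, 3.67, 9.79 and 8.39 in wt, where the value in wt 2 rests on 4 reads. It differed by 4.75 (SE 0.55), and by 5.21 without wt 1, which held the highest wt value. Cd300lf was 216, 191 and 189 in ko_igg, against 134, 43.1, 41.6 and 44.0 in wt, a difference of 1.78 (SE 0.45). Library wt 1 lay well above the other 3, and without it the difference was 2.18. None of the 3 genes overlapped between ko_igg and wt, as for 17.1% of 6594 tested genes in the higher direction. Calls stood at 5.73% higher and 3.46% lower.

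All 3 genes had lower mean levels in macrophages of the p19-deficient group than in 5C5_IL10R. The 5C5_IL10R libraries served in the contrast on which the genes were noticed, so these values, and those set against 5C5_IL10R under antibiotics below, are a description with no test. Ly6c1 was 47.0, 54.2, 37.8 and 54.9 in libraries 5C5_IL10R_P19_100, P19_105, P19_106 and P19_107, against 54.7 to 317 in 5C5_IL10R. The 4 P19 libraries lay close together, and of 5C5_IL10R only library 68 reached down into their range. The log2 difference was -1.59 (SE 0.36). Cd300lf was 22.6, 16.2, 16.9 and 30.0 in P19 libraries, against 19.3 to 325 in 5C5_IL10R. It differed by -2.13 (SE 0.51), with the same library 68 inside the P19 range. Of all 6612 genes tested, 0.514% were called lower and 1.92% higher. Equal macrophage marker sums, an alternative chosen after seeing the data, moved the median of all genes by -0.47 and the difference of Ly6c1 to -2.07 and of Cd300lf to -2.61. Clec4e was 0.870, 0.952, 5.21 and 5.59 in P19 libraries, against 7.24 to 131 in 5C5_IL10R. Its groups did not overlap, as for 4.42% of all 8816 genes in the lower direction, but the P19 values rest on 1, 1, 8 and 11 reads. The log2 difference was -2.45 (SE 0.79), and -3.05 with equal macrophage marker sums.

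The size of these differences depended on library 27, the highest of 5C5_IL10R for each gene. Without it they were -1.32 for Ly6c1, -1.75 for Clec4e and -1.68 for Cd300lf. Over the 9 libraries left out in turn they lay between -1.95 and -1.32 for Ly6c1, -2.76 and -1.75 for Clec4e, and -2.68 and -1.68 for Cd300lf. Against the CX libraries, a contrast given without a test, the P19 libraries had log2 differences of 0.28 (SE 0.46) for Ly6c1, -1.38 (SE 1.02) for Clec4e and 1.48 (SE 0.66) for Cd300lf. The P19 values of Ly6c1 overlapped those of CX, and the Cd300lf values lay above both CX libraries, as for 12.6% of tested genes in that direction. The Clec4e values lay below both, as for 11.1% of all listed genes, but the highest of them by less than the value of 1 read.

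With antibiotics, Ly6c1 lay below 5C5_IL10R in every library, Cd300lf lay within its range and Clec4e was uneven. Ly6c1 was 32.6, 33.9, 25.4 and 25.9 in libraries 5C5_IL10R_abx_160, abx_161, abx_495 and abx_497, all below the lowest 5C5_IL10R library at 54.7. Such a separation in the lower direction was seen for 19.5% of tested genes. Its log2 difference from 5C5_IL10R was -2.29 (SE 0.36), and -2.01 without library 27. Cd300lf was 47.9, 35.7, 25.4 and 38.4 in abx, against 19.3 to 325 in 5C5_IL10R. It differed by -1.36 (SE 0.51), and by -0.92 without library 27, while library 68 of 5C5_IL10R lay below all 4 abx libraries.

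Clec4e stood at 32.6, 45.1, 3.39 and 36.5 in abx. In 3 of the 4 it was above every 5C5_IL10R library but 27. Its log2 difference from 5C5_IL10R was 0.24 (SE 0.79), and 0.93 without library 27. The one low value, in abx_495, rests on 2 reads. Antibiotics went with a change of much of the transcriptome: 57.8% of the tested genes were called, 27.3% lower and 30.6% higher, so a call alone sets no gene apart. When libraries were scaled to equal sums, the split was 1531 higher and 2392 lower in place of 2020 higher and 1803 lower.

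Cell type markers also moved with antibiotics. Epithelial markers made up 0.216% to 0.373% of a 5C5_IL10R_abx library's values, against 1.24% to 1.54% in 5C5_IL10R, and all 11 were called lower. Macrophage markers made up 2.21% to 2.93% in abx, against 0.869% to 1.16% in 5C5_IL10R, and all 11 listed markers were called higher. Endothelial markers, of interest because endothelium expresses Ly6c1, summed to 71.2 to 156 in abx, against 200.3 to 334 in 5C5_IL10R, and both tested ones, Pecam1 and Plvap, were called lower. In sorted bulk RNA, fewer cells of a type and less RNA per cell cannot be told apart, and the part of these markers in the result was not tested. With equal macrophage marker sums the median of all genes was -1.53, and Ly6c1 then differed by -3.84, Cd300lf by -2.91 and Clec4e by -1.23.

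A test was made between the deficient and littermate groups under antibiotics, neither of which served to choose the genes, and none of the 3 passed it. Ly6c1 was 25.4 to 33.9 in 5C5_IL10R_abx, against 13.4, 16.3 and 26.3 in the 3 IL10R_littermate_abx libraries. The log2 difference was 0.67 (95% interval -0.18 to 1.53, limma adjusted p = 0.435). For Cd300lf the littermate values were 22.7, 29.8 and 15.8, and the difference was 0.68 (95% interval -0.55 to 1.91, limma adjusted p = 0.59). For Clec4e they were 45.4, 21.7 and 12.6, and the difference was -0.11 (95% interval -2.0 to 1.78, limma adjusted p = 0.965). All 3 genes overlapped between the groups, and these intervals do not show that the groups are alike. Of the 6612 genes, 0.0302% were called in this comparison.

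Within the rescue table the order of mean levels differed by gene. Ly6c1 ran from 5C5_IL10R (171 ± 99.3, SD, n = 5) over P19 (48.5 ± 7.98, n = 4), CX (40.6 ± 15.0, n = 2) and 5C5_IL10R_abx (29.5 ± 4.40, n = 4) to IL10R_littermate_abx (18.7 ± 6.79, n = 3), and each neighbouring pair overlapped. Cd300lf ran from 5C5_IL10R (132 ± 115) over 5C5_IL10R_abx (36.9 ± 9.23), IL10R_littermate_abx (22.8 ± 7.00) and P19 (21.4 ± 6.38) to CX (6.81 ± 0.840), with only CX apart from its neighbour. Clec4e was lowest in P19 (3.15 ± 2.60) and next in CX (8.54 ± 4.03), each apart from the group next above it in mean. P19 and CX were barely apart, with P19_107 at 5.59 (11 reads) and CX 3 at 5.69 (10 reads). That gap is smaller than the value of 1 read in either library (0.508 and 0.569). The other 3 groups had means of 26.6 to 35.3 and overlapped. CX, at 11.4 and 5.69, still overlapped 5C5_IL10R and 5C5_IL10R_abx, and P19 overlapped 5C5_IL10R_abx through abx_495 at 3.39. By mean level Ly6c1 was thus lowest in antibiotic-treated mice, Clec4e in p19-deficient mice, though barely apart from CX, and Cd300lf in CX.

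**Figure D2:**
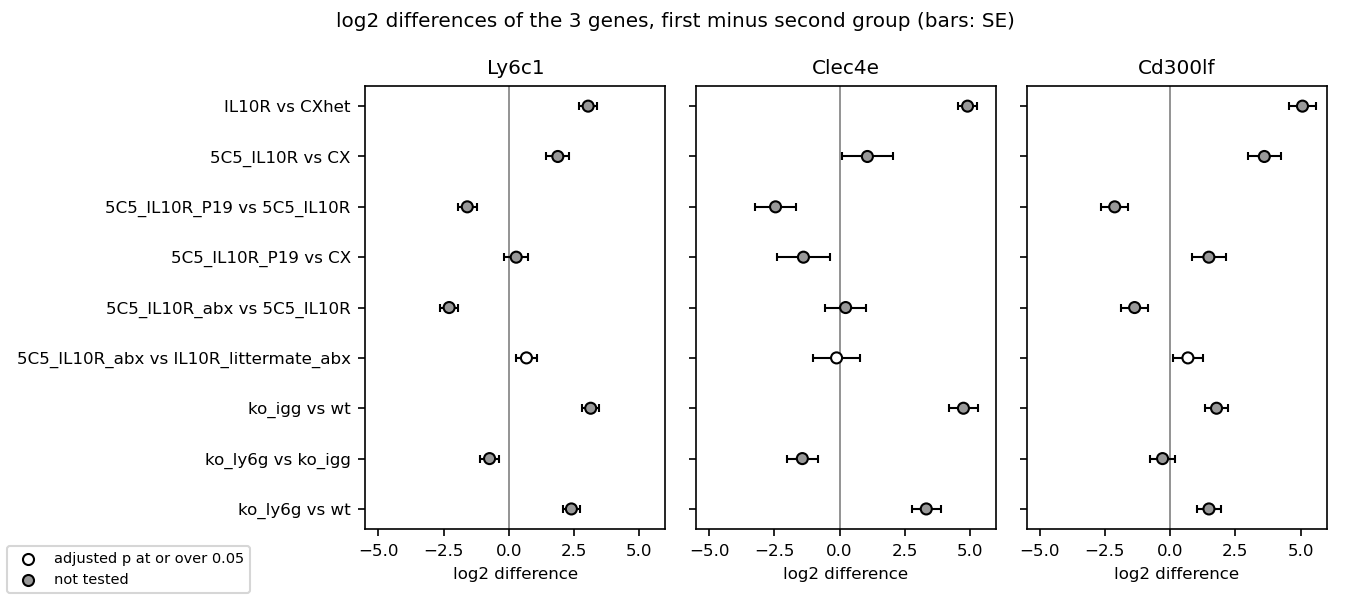
log2 difference (first minus second named group) of Ly6c1, Clec4e and Cd300lf in the 9 comparisons, with bars for SE. Grey points were not tested, because libraries in which the genes were noticed are part of the comparison, and the white points, 5C5_IL10R_abx vs IL10R_littermate_abx, did not pass at an adjusted p under 0.05. Against 5C5_IL10R, Ly6c1 and Cd300lf lie below 0 both with p19 loss (-1.59 and -2.13) and with antibiotics (-2.29 and -1.36).

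The group given the Ly6g antibody by its title, which depletes neutrophils, is set beside ko_igg without a test of the 3 genes, since they were also high in ko_igg when they were noticed. Clec4e was 66.2, 90.9 and 198 in the ko_ly6g libraries 5, 6 and 7, against 339, 293 and 237 in ko_igg. The ko_ly6g libraries all lay below the ko_igg libraries, as for 3.82% of tested genes in the lower direction, with a log2 difference of -1.42 (SE 0.59). Ly6c1 was 393, 819 and 739.9 in ko_ly6g, against 634 to 1459 in ko_igg, overlapping, with a difference of -0.74 (SE 0.35). Cd300lf was 84.7, 217 and 230.4 in ko_ly6g, against 189 to 216 in ko_igg. Its difference of -0.29 (SE 0.48) turned to 0.17 without ko_ly6g 5. In this comparison limma called 0 of 6594 genes, with 127 at an unadjusted p under 0.05, and edgeR on the recovered reads called 0, with 44 under that level.

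The ko_ly6g libraries stayed above wt for most values. Against wt, given without a test, the log2 differences were 2.40 (SE 0.33) for Ly6c1, 3.33 (SE 0.55) for Clec4e and 1.49 (SE 0.45) for Cd300lf, and 2.33, 3.79 and 1.89 without wt 1. Ly6c1 and Clec4e did not overlap, as for 13.8% of tested genes in the higher direction (2.99% were called higher and 1.35% lower), whereas Cd300lf overlapped because wt 1 (134) lay above ko_ly6g 5 (84.7). Library ko_ly6g 5 was the lowest of its group for all 3 genes, and it also had the lowest macrophage share, 0.567% of its values against 1.27% and 1.34% in the other 2. Neutrophil markers summed to 353, 1745 and 1753 in ko_ly6g 5, 6 and 7, against 427 to 1270 in ko_igg and 124 to 289 in wt.

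Ly6c1 was next set beside its relatives. Ly6c2, which encodes the other Ly6C protein, is so close that 97.6% of 822 aligned transcript bases are identical and 31.7% of all 50-base windows of Ly6c1 occur in it without change. How reads that fit both were counted is not given in the sources used here, so the split between the 2 genes is uncertain. Ly6c2 was 60.8, 841 and 251 in IL10R, against 56.4, 87.6 and 8.34 in CXhet. It overlapped between the groups and did not pass (log2 difference 2.69, SE 1.07, limma adjusted p = 0.163), and without IL10R 2 the difference was 1.77 (limma adjusted p = 0.351). In the rescue table it differed by -0.18 between 5C5_IL10R and CX (SE 0.65, limma adjusted p = 0.902), by -0.17 between P19 and 5C5_IL10R and by -0.91 between abx and 5C5_IL10R, none of them called. In the neutrophil table it rose by 1.59 in ko_igg (SE 0.25, limma adjusted p = 0.00383) and by 1.15 in ko_ly6g (SE 0.25, limma adjusted p = 0.0295) relative to wt. The call in ko_ly6g was lost without wt 3, wt 4, ko_ly6g 5 or ko_ly6g 7, and neither call held in edgeR.

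Of the 11 other Ly6 genes and related anchored proteins, 6, 6 and 7 were listed in the 3 tables. Ly6a, which encodes Sca-1 and lies next to Ly6c1, rose by 2.92 in IL10R (SE 0.28, limma adjusted p = 0.000964), by 1.74 in 5C5_IL10R (SE 0.42, limma adjusted p = 0.0165) and by 1.77 in ko_igg (SE 0.49, limma adjusted p = 0.0474) relative to their controls. It fell by 1.65 with antibiotics (SE 0.34, limma adjusted p = 0.000435). Leaving out either CX library ended the 5C5_IL10R call, and leaving out any library but ko_igg 18 ended the ko_igg call. In IL10R it was the only called one of 5 tested, with a median log2 difference of 1.51 over the 5 beside 0.00 over all tested genes. In ko_igg 3 of 6 were called higher, Ly6a, Ly6c2 and Ly6d, beside 5.73% of all tested genes. On 8 of the 10 libraries edgeR called 0 of the 6. With antibiotics Ly6e and Plaur, the urokinase receptor, rose by 0.47 and 1.23. With equal macrophage marker sums they stood at -1.11 and -0.34 and Ly6a at -3.22, beside a median of -1.53 over all tested genes.

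Markers of the cell types that could carry Ly6c1 were uneven. Of the monocyte markers tested in the first table, 6 of 12 were higher in IL10R (beside 4.57% of all tested genes), among them Hp, Ccr2 and Itgal. F13a1 was the lower one of these markers (beside 4.12% of all tested genes). Their summed share overlapped, at 0.143% to 0.371% in IL10R against 0.142% to 0.242% in CXhet, and Hp was at 0 in a CXhet library. The 0.371% was in IL10R 2, the library with Il10ra near the CXhet level. Median summed levels were 5220 in IL10R and 5193 in CXhet. In 5C5_IL10R 2 of 9 tested were higher than in CX, Cd177 and Mgst1, and F13a1 was lower (beside 3.87% higher and 6.03% lower of all tested genes). Under equal macrophage marker sums 6 were higher and 0 lower, with a median log2 difference of 1.11 beside 1.00 over all tested genes. In ko_igg and ko_ly6g the higher ones of 9 relative to wt were Hp and Ly6c2, and Fn1 was lower in ko_ly6g. Of all tested genes 5.73% were called higher in ko_igg and 2.99% in ko_ly6g, where 1.35% were called lower. On the recovered reads edgeR called 1 of the 9 in ko_igg and 0 in ko_ly6g.

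The summed monocyte share was also set beside Ly6c1 across the rescue table. It was 0.346% to 0.407% in 5C5_IL10R, 0.294% to 0.351% in P19, 0.210% to 0.280% in 5C5_IL10R_abx, 0.182% to 0.268% in IL10R_littermate_abx, and 0.286% and 0.306% in CX. The group means stood in the same order as those of Ly6c1, with 12 of 16 markers listed, Ly6c2 among them. Such an order was not particular to monocyte markers. Epithelial shares were 1.24% to 1.54% in 5C5_IL10R, 1.14% to 1.44% in P19, and 1.07% and 1.23% in CX. They were 0.216% to 0.373% in 5C5_IL10R_abx and 0.202% to 0.303% in IL10R_littermate_abx. No monocyte marker of 9 tested was called by limma in P19 against 5C5_IL10R, with 3 at an unadjusted p under 0.05 and 1 called by edgeR. Under equal macrophage marker sums 4 of the 9 were called lower, with a median of -0.61 beside -0.47 over all tested genes. With antibiotics 5 of 9 were lower, Plac8, S100a6, Fn1, Mgst1 and Cd177, and F13a1 and S100a4 were higher. Plac8 averaged 160 in abx against 1039 in 5C5_IL10R and Cd177 11.6 against 422, whereas F13a1 averaged 1241 against 74.4. The summed share thus joins large changes in opposite directions. Of all tested genes 27.3% were called lower and 30.6% higher there. The part of monocyte RNA in the values of the 3 genes was not tested.

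Endothelial markers summed to 412 to 852 in IL10R, against 259 to 452 in CXhet, with 6 of 12 listed. Of 3 tested, Pecam1 was called higher, a call lost both with equal sums and with equal macrophage marker sums. They summed to 200.3 to 334 in 5C5_IL10R against 129 and 219 in CX, and to 439 to 770 in ko_igg against 331 to 400 in wt. Among lymphocyte markers, 0 of 1 tested T cell and 0 of 4 B and plasma cell markers were called in IL10R. In 5C5_IL10R Cd4, Cd79b and Cd22 were lower than in CX (beside 6.03% of all tested genes). Relative to 5C5_IL10R, Cd4 was higher in P19 (1.92%). In abx Cd4, Cd79b and Cd22 were higher (30.6%) and Jchain lower (27.3%). None was called in ko_igg or ko_ly6g relative to wt. The part of endothelial or lymphocyte RNA in the Ly6c1 values was not tested.

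Clec4e has Clec4d and Clec4n as neighbours, which encode the lectin receptors MCL and Dectin-2 and share no run of 50 bases with it. Clec4d, the partner that pairs with Mincle, was 132, 1218 and 285 in IL10R, against 113, 114 and 61.2 in CXhet. The ranges did not overlap, but the spread was wide and it did not pass (1.94, SE 0.68, limma adjusted p = 0.115), and without IL10R 2 it was 1.06 (limma adjusted p = 0.147). In ko_igg it rose by 2.39 relative to wt (SE 0.66, limma adjusted p = 0.0474), a call lost with edgeR and without ko_igg 14 or 16 or wt 2, 3 or 4, while Clec4n had -0.96 (SE 0.86) and was not called. In the rescue table neither was called in any comparison. Of the 9 lectin receptors tested in IL10R, Clec5a, Clec7a and Clec12a were higher, by 1.47, 1.31 and 3.14, where 4.57% of all tested genes were higher. Clec10a, a lectin of macrophages and dendritic cells, differed by -1.78 in IL10R, -1.31 in 5C5_IL10R and -2.39 in ko_igg relative to their controls. It rose by 1.33 in P19 and by 3.01 in abx relative to 5C5_IL10R, and all of these passed. The IL10R call was lost without any 1 CXhet library or without IL10R 3, and the ko_igg call with edgeR. The 5C5_IL10R call was lost without either CX library. It was also lost with equal macrophage marker sums (-0.35, limma adjusted p = 0.335, beside a median of 1.00 over all tested genes). The Clec5a call in IL10R was lost without CXhet 2, CXhet 3 or IL10R 3.

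Of 9 tested genes of the Mincle signalling chain, Malt1 was called higher in IL10R, by 1.79 (SE 0.25, limma adjusted p = 0.00471). In that comparison 4 of the 9 were at an unadjusted p under 0.05, and their median log2 difference was 0.69 beside 0.00 over all tested genes. Limma called 0 of 9 in ko_igg or ko_ly6g relative to wt, with 0 at an unadjusted p under 0.05 and 0 called by edgeR. In 5C5_IL10R the adaptor Fcer1g and the kinase Lyn were lower than in CX, at -1.31 and -0.65. With equal macrophage marker sums Lyn was at 0.34, beside a median of 1.00 over all tested genes. Both calls were lost without CX 1, that of Lyn also without 5 others of the 7 libraries. With antibiotics 7 of 9, among them Fcer1g by 1.92 and Syk by 1.24, were higher than in 5C5_IL10R, beside 30.6% of all tested genes. None was higher with equal macrophage marker sums, where Syk was at -0.33 and the median of all tested genes at -1.53. Of the genes induced through Mincle, Nos2, the inducible nitric oxide synthase, rose by 6.69 in IL10R, 6.47 in 5C5_IL10R and 5.50 in ko_igg relative to their controls, and relative to 5C5_IL10R it fell by 4.09 in P19 and fell by 4.69 in abx. Nos2 averaged 0.285 in CX and was at 0 in a CX library, so the size of its rise in 5C5_IL10R depends on the constant added before logs were taken. Of these Nos2 calls, the one in 5C5_IL10R was lost without CX 1 and the one in P19 without 5 of the 9 libraries. These genes respond to many other signals as well. Ptgs2 rose in IL10R by 1.88, a call lost without CXhet 2 or CXhet 3, and Tnf rose in ko_igg by 2.31 and in ko_ly6g by 1.86, the last lost without ko_ly6g 6 or 7. Of the Ly6, lectin, Mincle and inhibitory receptor genes that limma called in ko_igg or ko_ly6g relative to wt, edgeR on 8 libraries called Nos2 and no other. With antibiotics Tnf and Cxcl2 rose, by 1.75 and 1.503, and with equal macrophage marker sums they were at 0.18 and -0.07.

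Neutrophils are a known site of Clec4e and Cd300lf expression, and their markers were higher in part of the libraries with high Clec4e. Of 5 tested neutrophil markers 4 were higher in IL10R than in CXhet, S100a9, Lcn2, Trem1 and Csf3r, beside 4.57% of all tested genes. The listed 8 of 15 summed to 733 to 1080 in IL10R against 138 to 255 in CXhet. S100a8, Retnlg, Lcn2 and Trem1 were at 0 in at least 1 CXhet library. In the rescue table library 27 held the highest Clec4e value and the highest neutrophil sum, and the other 4 of its group had 99.7 to 195 against 75.6 and 115 in CX. Relative to wt, 2 of 4 tested markers, S100a9 and Lcn2, were higher in both ko_igg and ko_ly6g, beside 5.73% and 2.99% of all tested genes. Libraries ko_ly6g 6 and 7, with the highest sums of that table, had Clec4e values of 90.9 and 198, both below every ko_igg library. The part of neutrophil RNA in the Clec4e and Cd300lf values was not tested.

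**Figure D3:**
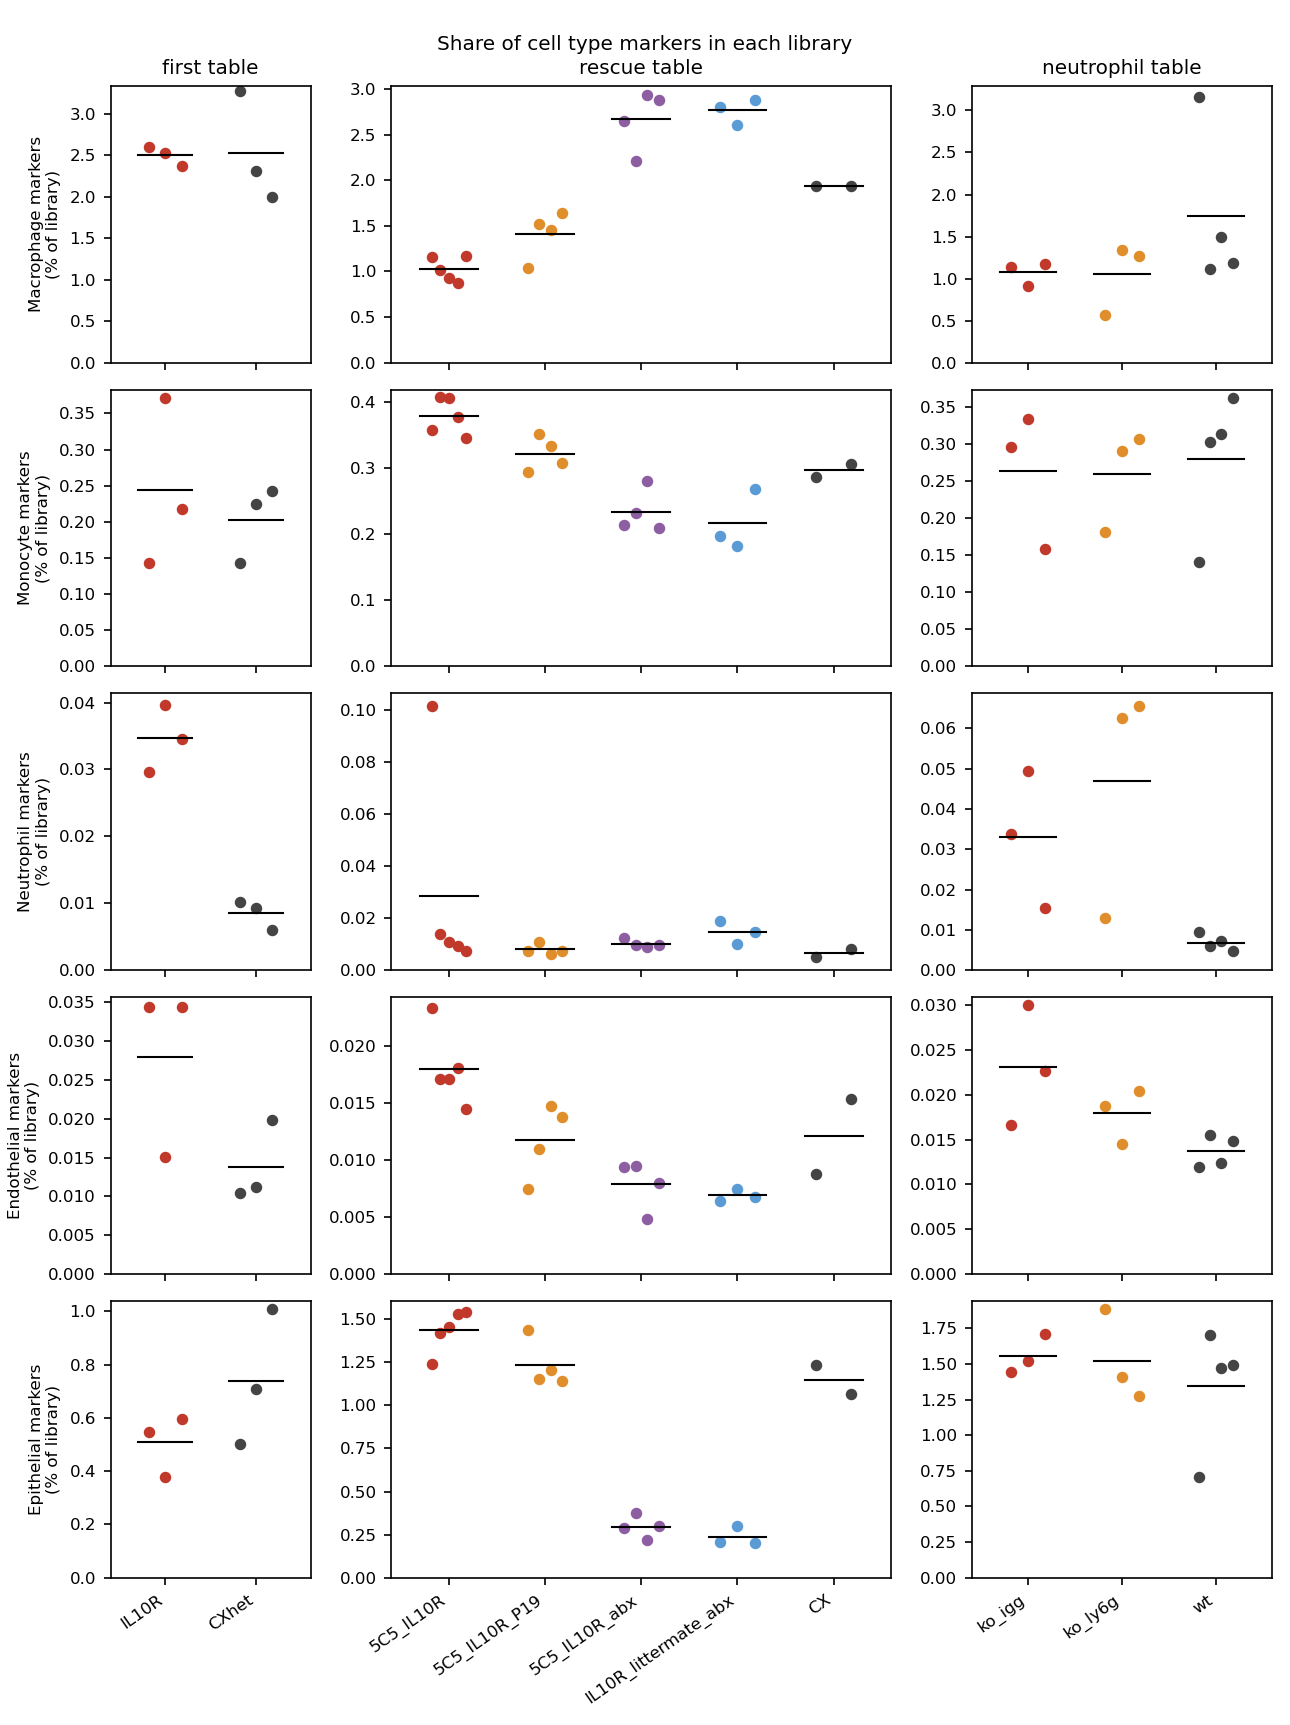
Share of each library's values taken by macrophage, monocyte, neutrophil, endothelial and epithelial markers (percent, by group and table). Points are libraries and lines are group means. Library 27 of 5C5_IL10R holds 0.101% in neutrophil markers, the rest of its group at most 0.0141%, and the antibiotic groups are low in epithelial and high in macrophage markers.

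In the rescue table Cd300lf and its listed relatives differed in opposite directions, which for part of them depended on the scaling. Of 8 other CD300 genes, 3, 3 and 4 were listed in the 3 tables. Cd300a, an inhibitory receptor, was 117, 97.5, 109, 95.7 and 108 in the 5C5_IL10R libraries, against 171 and 202 in CX, and it differed by -0.82 (SE 0.21, limma adjusted p = 0.022). Cd300ld, an activating receptor, was 54.6, 34.2, 19.2, 22.0 and 35.4 in 5C5_IL10R, against 91.1 and 85.4 in CX. It differed by -1.48 (SE 0.31, limma adjusted p = 0.00581). The groups overlapped for neither gene, as for 18.3% of tested genes in the lower direction, and Cd300lf was higher in these same libraries. Leaving out either CX library ended both calls. With equal macrophage marker sums Cd300a turned to 0.17 and Cd300ld stood at -0.52, beside a median of 1.00 over all tested genes.

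With p19 loss Cd300a was 123, 175, 217 and 216 in the P19 libraries and rose by 0.76 (SE 0.17, limma adjusted p = 0.0226) relative to 5C5_IL10R. Cd300ld was 69.6, 59.9, 69.0 and 90.4 and rose by 1.18 (SE 0.25, limma adjusted p = 0.0157), where Cd300lf was lower. Cd300lb, below the level filter, rose by 1.21 in the fit over all listed genes (SE 0.29, limma adjusted p = 0.0343), where 1.33% of genes were called higher. The Cd300ld call was lost without P19_106 or P19_107, the Cd300a call without 5 of the 9 libraries and the Cd300lb call without 7. With equal macrophage marker sums the differences were 0.29, 0.73 and 0.77 for Cd300a, Cd300ld and Cd300lb, and of them Cd300ld still passed (limma adjusted p = 0.0259). The median of all tested genes was then -0.47.

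With antibiotics Cd300a rose by 1.47, Cd300ld by 1.44 and Cd300lb by 1.44 relative to 5C5_IL10R (limma adjusted p = 6.32e-07, 5.14e-05 and 0.000271), where 27.7% of all listed genes were called higher. With equal macrophage marker sums they turned to -0.10, -0.11 and -0.08, none of which passed, beside a median of -1.53 over all tested genes. The macrophage markers moved in the same direction as these relatives. Of 11 tested, 9 were lower in 5C5_IL10R than in CX, beside 6.03% of all tested genes. In P19 5 were higher than in 5C5_IL10R, beside 1.92% of all tested genes. The part of the macrophage share in the family's values was not tested.

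Outside the rescue table limma called 0 of the tested relatives, of which there were 2 in IL10R against CXhet and 3 in the comparisons with wt. At an unadjusted p under 0.05 there were 0 in IL10R, 2 in ko_igg and 2 in ko_ly6g relative to their controls, and edgeR called 0. In IL10R against CXhet the log2 differences were 0.48 (SE 0.25) for Cd300a and -0.25 (SE 0.31) for Cd300ld, beside 5.07 for Cd300lf. In ko_igg against wt they were -1.07 (SE 0.32, limma adjusted p = 0.0591) for Cd300a and -1.11 (SE 0.50) for Cd300ld, beside 1.78 for Cd300lf. Transcripts of Cd300lf and Cd300ld share a run of 134 bases, and 5.17% of the 50-base windows of Cd300lf occur in Cd300ld, so a small part of their reads may be exchanged. Cd300a and Cd300lb share no such window with Cd300lf.

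**Figure D4:**
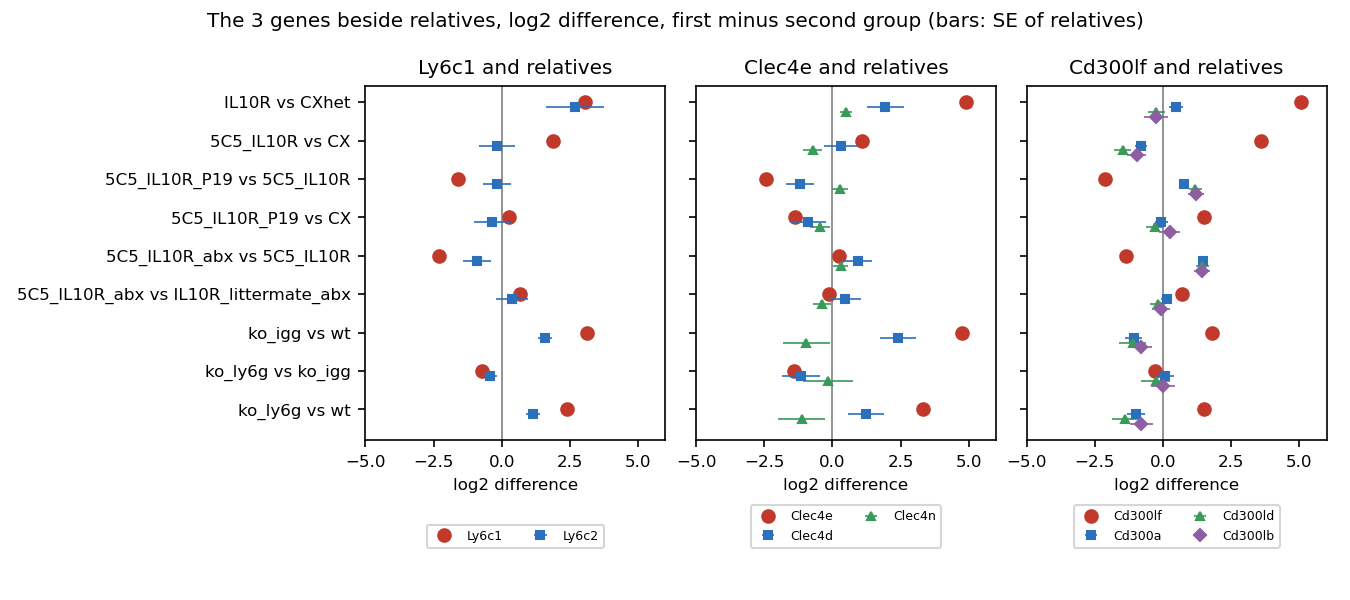
log2 difference (first minus second named group) of Ly6c1, Clec4e and Cd300lf beside relatives, with bars for the SE of the relatives. Cd300lf and its relatives lie on opposite sides of 0 in 5C5_IL10R vs CX (3.61 against -0.82 and -1.48 for Cd300a and Cd300ld) and in P19 vs 5C5_IL10R (-2.13 against 0.76 and 1.18). In 5C5_IL10R vs CX under equal macrophage marker sums Cd300a was at 0.17, beside a median of 1.00 over all tested genes.

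The phosphatases and adaptors that CD300 receptors use gave no call in the first or neutrophil table, where limma called 0 of 8 in IL10R, ko_igg or ko_ly6g relative to their controls, with 1 at an unadjusted p under 0.05 in each and 0 called by edgeR. With p19 loss limma also called 0 of 8, with 4 at an unadjusted p under 0.05 and 1 called by edgeR. In 5C5_IL10R the phosphatase Inpp5d and the adaptors Hcst and Fcer1g were lower than in CX, at -0.70, -0.95 and -1.31. With equal macrophage marker sums Inpp5d and Hcst were at 0.29 and 0.01 and Fcer1g at -0.32, beside a median of 1.00 over all tested genes. Without CX 1 none of these 3 genes passed. With antibiotics 7 of 8 were higher than in 5C5_IL10R, beside 30.6% of all tested genes. With equal macrophage marker sums 1 was higher and 4 were lower, and the median of all tested genes was -1.53. Among other inhibitory receptors, Pilra was higher in IL10R by 2.07, and Cd33 was lower in 5C5_IL10R, ko_igg and ko_ly6g than in their controls, with differences of -1.39, -1.32 and -1.39 that no longer passed with equal macrophage marker sums, nor with 2 of 7, 5 of 7 and 6 of 7 libraries left out in turn. Lair1 and Cd33 rose in P19 relative to 5C5_IL10R, by 0.77 and 1.17. Leaving out P19_105, P19_106, P19_107 or 5C5_IL10R 67 ended both calls, 5C5_IL10R 61 that of Lair1, and 5C5_IL10R 27 or 32 that of Cd33. With equal macrophage marker sums Lair1 stood at 0.30 and did not pass, and Cd33 at 0.71 (limma adjusted p = 0.0343), beside a median of -0.47 over all tested genes.

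Likeness over the 10 groups was measured as the root mean square difference between log2 group means, each gene first centred within its table. Cd300lf was closest to the chemokine gene Cxcl9 (0.36), then C3, Serpina3g, Procr and Gbp2 (0.57 to 0.66), where the median over 5577 genes was 1.48. Ly6c1 was closest to Upp1, Ass1, Ly6a, Socs1 and Anxa8 (0.38 to 0.47), where the median was 1.23. Clec4e had no gene as close, its nearest being Gbp2 (0.78), then Ccl5, C3, Serpina3g and Il18bp (0.84 to 0.97), where the median was 1.73. The 3 genes were less like each other than like these, at 0.89 for Ly6c1 and Cd300lf, 1.08 for Clec4e and Cd300lf and 1.23 for Ly6c1 and Clec4e. The groups share a sort and, within a table, a normalization, and the measure is a description.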

How the data were processed

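Oligo-dT capture, linear amplification and fragmentation preceded library making, per the labels' protocols. The submitters' processing notes name HISAT 0.1.6, HOMER, bcl2fastq and build mm9. The sources used here give neither their roles nor how strand and shared reads were treated. The values the authors deposited are a signal: the read count of a gene, scaled by a single factor in each library. Among the libraries taken as recovered, 100% of values were whole multiples of 1 read within 0.05 read, so this share describes those libraries only. Reads of 2 libraries, ko_igg 16 and wt 3, are not claimed as recovered, and a single factor is not shown for them. Reads of listed genes numbered 1458726 to 2487074, 747046 to 2775974 and 1028567 to 4525047 in the first, rescue and neutrophil tables. Depth limits precision, and read counts cover counting error only.

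The count test planned for raw counts was not the main test, since values are normalized. Values were taken as log2(value + pseudocount), with pseudocounts of 1.31, 0.997 and 0.982, which understates changes of low genes. Genes in the lower quartile of means (up to 53.2, 40.4 and 68.0) were removed, leaving 6766, 6612 and 6594. Each table was fitted in limma 3.58.1 (R 4.3.3) with a trend and robust variances, and a gene was called at an adjusted p (Benjamini-Hochberg, all tested genes) under 0.05. Clec4e and Cd300lb fell below the filter of the rescue table and were read from a fit without it. The fit was tested on simulated data. edgeR 4.0.16 on recovered reads was an alternative, beside another pseudocount, no filter, equal sums, a replicate block and each library left out. Every pair of libraries with recovered reads within a group differed by more than counting noise (smallest chi-square per degree of freedom 3.58). Libraries without recovered reads could not be compared in this way, and all 34 were kept. Transcripts were compared with GENCODE M21, and sequences are from RefSeq. The members and gene lists were chosen with earlier results of these data known. Planned tests of the 3 genes against 5C5_IL10R or ko_igg are not given, since the genes were noticed in those libraries. Named relatives and list members followed 1 rule: the nearest family genes, and the 4 smallest adjusted p among the called genes of a list, with the other called members given by name only.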

Additional observations from a re-analysis of the deposited data

Results flagged for a closer look

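In 4 of 41 groups of a gene that were examined 1 library lay far from the rest, and chance flags about 1 in 20 groups. Clec4e in 5C5_IL10R replicate 27 was 131, against 7.24 to 15.1 in the other 4 libraries. The other 3 are in wt replicate 1, where Cd300lf was 134 against 41.6 to 44.0 in the other 3 libraries, Il10ra was 827 against 247 to 328, and Cd300c2 was 1878 against 777 to 939. In that library macrophage markers took 3.16% of the values, against 1.12% to 1.4996% in the other wt libraries, and epithelial markers 0.704%, against 1.47% to 1.70%. The part of these shares in the values was not tested.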

How the results depend on the processing

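Leaving out 1 library in turn, the number of called genes ranged from 200 to 588 (IL10R vs CXhet), 20 to 741 (5C5_IL10R vs CX), 17 to 377 (P19 vs 5C5_IL10R), 0 to 2 (P19 vs CX), 3616 to 3839 (abx vs 5C5_IL10R), 2 to 385 (abx vs littermate), 203 to 1039 (ko_igg vs wt), 0 in all 6 (ko_ly6g vs ko_igg) and 103 to 489 (ko_ly6g vs wt). The corresponding full counts are 588, 655, 127 higher with 34 lower, 2, 3823, 2, 606, 0 and 286. The 20 calls came without CX 1, the 385 without 5C5_IL10R_abx_497, the 1039 and 489 without wt 1, and a control arm of 1 library was assumed to vary like the other groups. edgeR on recovered reads called 287 (P19 vs 5C5_IL10R), 56 (ko_igg vs wt) and 56 (ko_ly6g vs wt). For the last pair it had 8 libraries instead of 10.

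Of the 3 genes, log2 differences ranged under leave-one-out from -1.95 to -1.32 (Ly6c1) and -2.68 to -1.68 (Cd300lf) for P19 vs 5C5_IL10R, from -1.92 to -0.92 for Cd300lf and -0.11 to 1.02 for Clec4e in abx vs 5C5_IL10R, from -0.094 to 0.66 for Ly6c1 in P19 vs CX, from -0.53 to 0.67 for Clec4e in abx vs littermate, and from -0.54 to 0.17 for Cd300lf in ko_ly6g vs ko_igg. Clec4e reversed in abx vs 5C5_IL10R with edgeR (-0.13) and with equal macrophage marker sums (-1.23), and in abx vs littermate with 10 times the pseudocount (0.027) and edgeR (0.14). With 10 times the pseudocount Cd300lf moved to 3.75 (IL10R vs CXhet) and 0.88 (P19 vs CX) and Clec4e to 3.86 (ko_igg vs wt). With equal macrophage marker sums, chosen after seeing the data, the median of all genes shifted by between -1.53 and 1.00, Ly6c1 moved to 2.86 (5C5_IL10R vs CX), 0.79 (P19 vs CX), -3.84 (abx vs 5C5_IL10R), 3.74 (ko_igg vs wt) and 3.07 (ko_ly6g vs wt), and Cd300lf to 1.98 (P19 vs CX) and -2.91 (abx vs 5C5_IL10R). The cause of these changes was not tested.

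Of 65 called differences of named relatives and list genes, 18 reversed with equal macrophage marker sums, which means a change of sign whatever its size. The median of all tested genes was then 1.00 in 5C5_IL10R vs CX, above each value below, and -1.53 in abx vs 5C5_IL10R, below each. Relative to CX, 5C5_IL10R then had Cd300a at 0.17, Lyn at 0.34, Hcst at 0.014 and Inpp5d at 0.29. Relative to 5C5_IL10R, abx had Cd300a at -0.095, Cd300lb at -0.075, Cd300ld at -0.11, Plaur at -0.34, Ly6e at -1.11, Clec4a1 at -0.022, Clec4a2 at -0.13, Clec12a at -0.25, Lyn at -0.15, Syk at -0.33, Cxcl2 at -0.073, Tyrobp at -0.21, Hcst at -0.050 and Sirpa at -0.076. Another 18 lost the call with that scaling, 11 with edgeR, 3 with equal sums and 1 without the filter.

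Whether equal replicate numbers in the first table pair the libraries could not be decided with 3 libraries per group. Same-number deviations correlated at -0.06, 0.15 and 0.35, and those of other pairs at -0.30 to 0.15. With the replicate block 808 genes were called in place of 588, and Ly6c1, Clec4e and Cd300lf kept 3.04, 4.91 and 5.07. Depth limits Clec4e in P19 and in abx_495 and Cd300lf in CXhet 3, which rest on 1 to 11 reads. It also limits other control values. Clec4e rests on 11 and 10 reads in CX 1 and 3, 9 in CXhet 3, and 9, 4 and 8 in wt 1, 2 and 4. Cd300lf rests on 9 and 6 reads in CXhet 1 and 2 and 6 in CX 1. In 5C5_IL10R 67 and 68 Clec4e rests on 11 and 9 reads.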
